A study of Homo sapiens with 8 samples.

Results

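The regions described here are the called binding regions of TEAD4 and SMAD2 within 50 kb of 4 genes that TGF-β family signalling switches on and that then dampen it, SMAD7, SKIL, BAMBI and PMEPA1, in the human embryonic stem cell line WA09, an established line. The genes were picked with earlier results of these data known, and the regions by position. Every region of the 3 deposited lists that touches the hg19 gene body extended by 50 kb on both sides is included. This gave 185 of 972037 regions, 59 of 262109 for TEAD4 in SB431542 cells, 40 of 289380 for TEAD4 in DMSO cells and 86 of 420548 for SMAD2 in DMSO cells. Cells had been kept for 4 h in 10 µM SB431542, a kinase inhibitor of the type I receptors for activin, Nodal and TGF-β, or in its solvent DMSO. All were WA09 cells on Matrigel in medium conditioned by feeder fibroblasts, and TEAD4 and SMAD2 were precipitated from formaldehyde-fixed, sonicated chromatin. The labels name 8 libraries, 1 per group. The input, IgG and SMAD2 libraries of SB431542 cells and the input and IgG libraries of DMSO cells were not analysed here. SMAD2 regions thus come from DMSO cells only. Their overlap with TEAD4 regions of SB431542 cells joins cells of different treatment and does not show both proteins bound in the same cells. With 1 library per group no value has a replicate error, intervals cover counting error only, and no test between groups is given.

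SMAD2 is phosphorylated by the type I receptors, joins SMAD4 and enters the nucleus, where the complex acts on DNA together with other transcription factors. In human embryonic stem cells this branch is known for holding the pluripotent state. TEAD4 is a DNA-binding protein through which YAP and TAZ, the effectors of the Hippo pathway, act on genes. The 4 genes act at different steps of the SMAD route. BAMBI is a receptor-like membrane protein without a kinase domain, which blocks type I receptors. SMAD7 is an inhibitory SMAD that competes at the receptor and brings ubiquitin ligases to it. PMEPA1 is a membrane protein that holds SMAD2 and SMAD3 away from the receptor. SKIL, also called SnoN, is a nuclear corepressor that binds SMAD complexes.

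None of the 4 gene starts lay under a called region, and the RefSeq sequences at starts of these genes are given as context. In hg19, no list had a region within the 300 bp from 250 bp before each start to 50 bp after it. Of points spaced 1 kb apart along the genome, 3.90% had such a region for TEAD4 in SB431542, 4.44% for TEAD4 in DMSO, 5.76% for SMAD2 and 13.2% for any of them, so 0 of 4 starts is near that background. The stretch around the start without a region of any list was 4.90 kb at SMAD7, 4.75 kb at SKIL, 15.6 kb at BAMBI and 1.70 kb at PMEPA1. Stretches at least that long make up 51.7%, 53.1%, 10.9% and 84.0% of the chromosomes. Assembly gaps were counted as such stretches, so these shares, and that for BAMBI most, may be too high. The RefSeq windows of the same length on GRCh38.p14 hold 1 start each for BAMBI and SKIL, 3 for SMAD7 and 4 for PMEPA1, and need not begin at the hg19 start. They were searched on both strands for CAGAC, which some SMAD proteins bind, and a match is not shown to be a site of SMAD2. The core of the TEAD site, GGAATG, was searched in the same way. The SMAD letters were found in 7 of the 9 windows, against 45.3% of 35114 windows of all genes, and the TEAD letters in 0 of 9, against 14.0%. The 9 windows belong to only 4 genes and are not independent, so these counts describe letters only and show no enrichment or lack. The outermost windows of BAMBI (chr10:28677271-28677570, + strand), SMAD7 (chr18:48950916-48951215, - strand) and SKIL (chr3:170357465-170357764, + strand) are printed 5′ to 3′ on the gene's strand, with CAGAC or its reverse complement in capitals. They hold it 2, 2 and 1 times and GGAATG not at all.
BAMBI: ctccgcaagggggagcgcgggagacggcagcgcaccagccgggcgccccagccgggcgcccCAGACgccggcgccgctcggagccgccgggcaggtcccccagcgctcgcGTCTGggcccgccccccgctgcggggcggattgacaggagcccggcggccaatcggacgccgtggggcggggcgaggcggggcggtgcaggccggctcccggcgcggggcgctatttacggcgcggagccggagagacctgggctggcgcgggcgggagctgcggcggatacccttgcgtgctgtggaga
SMAD7: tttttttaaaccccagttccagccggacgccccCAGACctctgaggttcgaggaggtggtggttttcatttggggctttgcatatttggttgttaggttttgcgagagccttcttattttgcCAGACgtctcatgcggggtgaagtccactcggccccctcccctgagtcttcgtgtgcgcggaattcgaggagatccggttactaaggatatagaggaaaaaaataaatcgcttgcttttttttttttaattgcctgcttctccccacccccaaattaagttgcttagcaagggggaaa
SKIL: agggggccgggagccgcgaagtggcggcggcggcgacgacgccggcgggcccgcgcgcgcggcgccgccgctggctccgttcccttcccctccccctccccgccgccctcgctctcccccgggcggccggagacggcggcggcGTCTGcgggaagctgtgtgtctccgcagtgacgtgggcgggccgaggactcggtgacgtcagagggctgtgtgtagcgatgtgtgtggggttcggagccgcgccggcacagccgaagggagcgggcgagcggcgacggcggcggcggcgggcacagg
The outermost PMEPA1 window held neither motif.

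Each list gives only a chromosome, a start and an end, and the place of a region in it is its row. Rows are not a fine ranking. Of the steps from 1 row to the next, 97.4% in the TEAD4 list of SB431542 cells, 98.8% in the TEAD4 list of DMSO cells and 95.2% in the SMAD2 list went down by chromosome name and position. The lists thus consist of 6776, 3462 and 20227 runs, in each of which the order follows the chromosome and not a strength. A region lay in a run of 528, 3907 and 328 rows at the median. Within the runs of the SB431542 list 98.9% of rows had the same width as the row before, compared with 32.4% for TEAD4 in DMSO and 49.3% for SMAD2, so its row also follows the width. The rows below are therefore read only as coarse places in a list. All starts of the DMSO lists lie on a 50 bp grid, as 1.97% of the starts of the SB431542 list do. A difference between the TEAD4 lists thus cannot be told apart from a difference in how they were made, and a region missing from one is not a measured loss or gain.

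**Figure D1:**
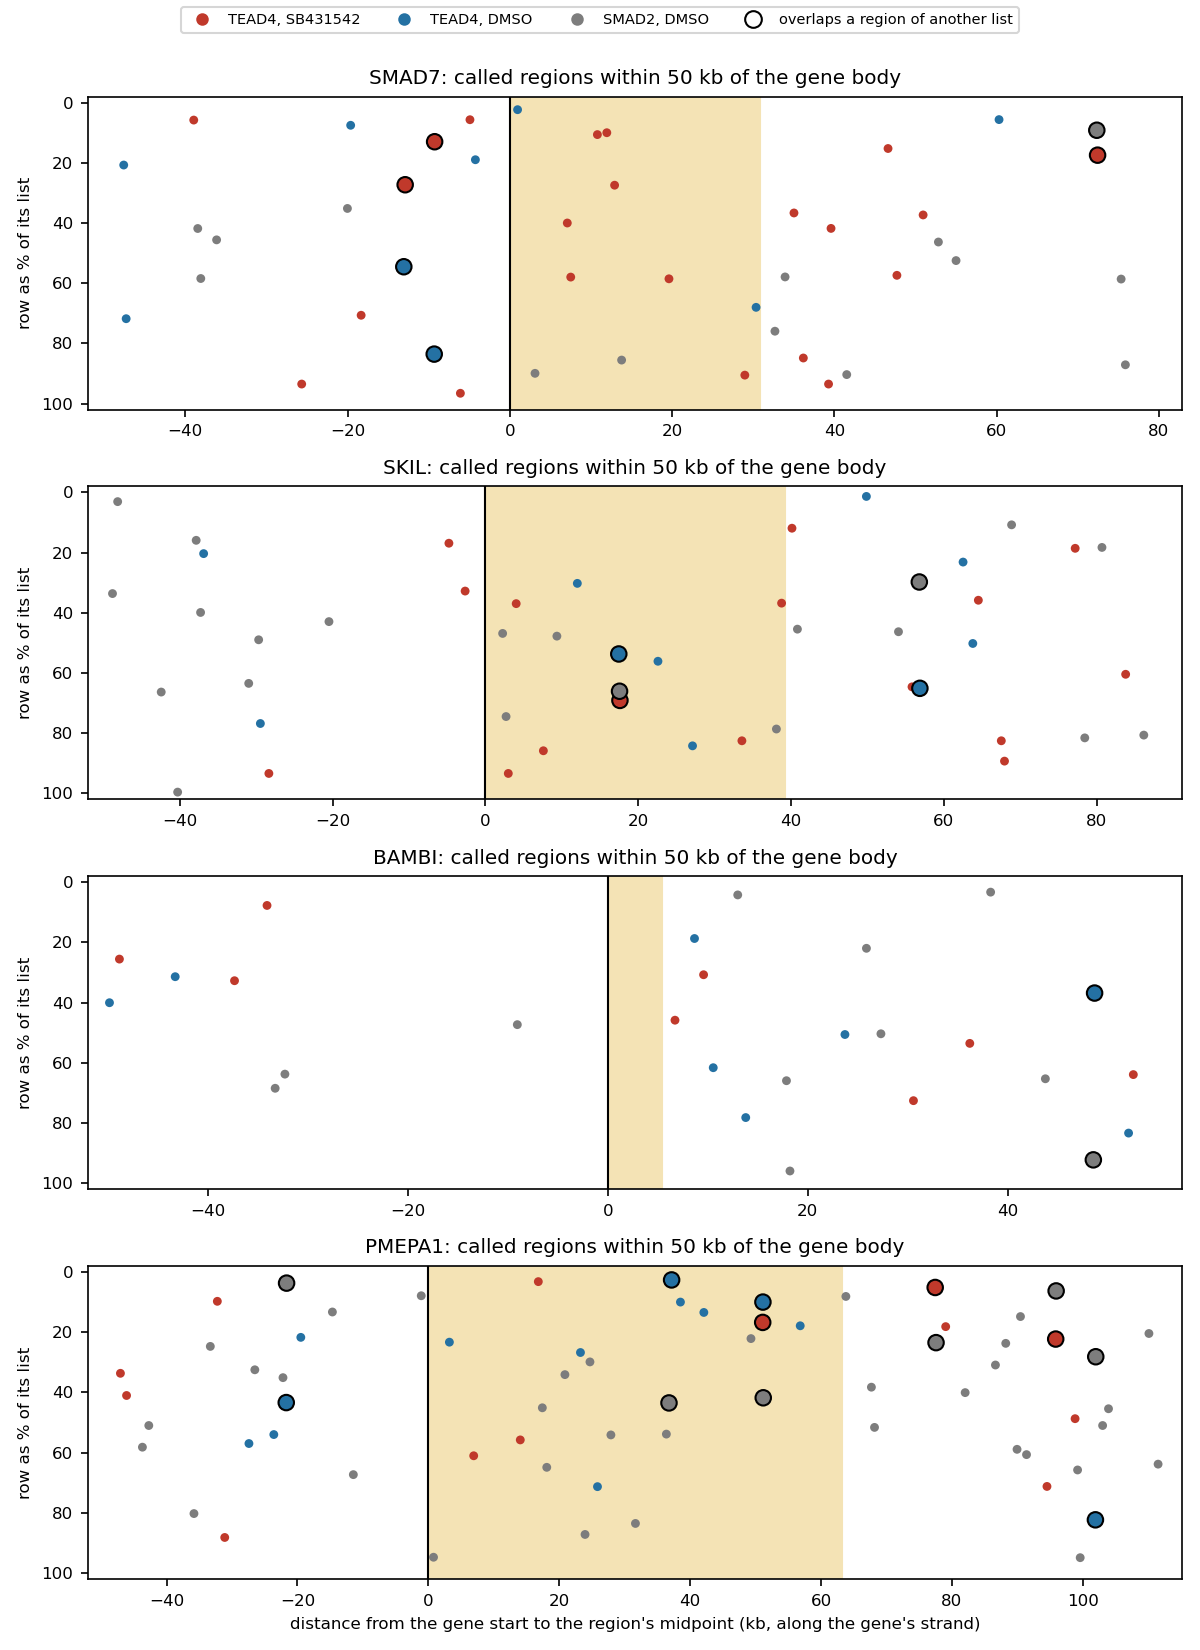
Called regions around SMAD7, SKIL, BAMBI and PMEPA1, by distance of the midpoint from the gene start (x, kb) and by row as percent of the list (y, first rows at the top), for TEAD4 in SB431542 (red), TEAD4 in DMSO (blue) and SMAD2 in DMSO (grey). Shading is the gene body, and large outlined points overlap a region of another list. The BAMBI body holds no point, and the PMEPA1 panel has the most grey points, 40.

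BAMBI, the decoy receptor, had the fewest regions and none on the gene itself, which takes up 5.45 of the 105 kb of its window. Its window on chromosome 10 (gene body 28966424 to 28971868) held 8 TEAD4 regions in SB431542, 8 in DMSO and 11 SMAD2 regions. Windows of the same width laid end to end along the chromosomes (tiles) had medians of 9, 11 and 16, and 41.1%, 30.5% and 17.5% of the tiles had at most these numbers. The stretch without any region ran from 28957450 to 28973055, with the whole gene inside it. The nearest regions lay 6.72 kb downstream of the start for TEAD4 in SB431542 (row 120183), 8.68 kb downstream for TEAD4 in DMSO (28975001 to 28975199, row 54197) and 9.05 kb upstream for SMAD2 (row 199046). The TEAD4 region nearest in DMSO was also the earliest of that list in the window. In SB431542 the earliest TEAD4 region lay 34.1 kb upstream (28932237 to 28932434, row 20313). SMAD2 had 2 regions in the first 10% of its rows, both downstream. They lay 38.3 kb from the start at 29004601 to 29004849 (row 14004) and 13.0 kb from it at 28979301 to 28979549 (row 17881). Neither overlapped TEAD4. The lists met once around BAMBI, 48.7 kb downstream, where TEAD4 in DMSO (29015001 to 29015249, row 106611) and SMAD2 (29014951 to 29015049, row 387853) shared 49 bp. That SMAD2 region stood far down its list, 92.2% of the way. TEAD4 regions of SB431542 cells overlapped neither DMSO list here. Over their whole list 6.39% overlapped TEAD4 in DMSO and 5.46% SMAD2, so 0 of 8 is near the background.

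SMAD7, the inhibitory SMAD, had many TEAD4 regions in SB431542, while its number in DMSO was below the tile median, as at the other genes. The window on chromosome 18 (gene body 46446223 to 46477081, minus strand) held 22 TEAD4 regions in SB431542, 9 in DMSO and 14 SMAD2 regions. Tiles of this width had a median of 12 TEAD4 regions in SB431542, 13 in DMSO and 19 SMAD2 regions. At least 22 in SB431542 were found in 2.99% of the 21836 tiles, at most 9 in DMSO in 21.0% and at most 14 SMAD2 regions in 16.4%. A surplus of at least 13 regions in SB431542 over DMSO was found in 1.71% of tiles. TEAD4 regions of SB431542 thus made up 71.0% of the TEAD4 regions of the window (95% Wilson interval 53.4 to 83.9%). Over both whole lists the share was 47.5%. SMAD7 was the gene with the highest share. At SKIL it was 61.5% (42.5 to 77.6%), and BAMBI and PMEPA1 had equal numbers in both treatments. The intervals of these other genes took in 47.5%. Neighbouring regions are not independent and the lists were made in different ways, so an effect of SB431542 was not tested. Of the 22 TEAD4 regions in SB431542 at SMAD7, 7 lay on the gene body, and 2 of the 9 in DMSO did. The body is 30.9 of the 131 kb of the window.

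The region nearest the SMAD7 start belonged to TEAD4. In DMSO cells TEAD4 had a region at 46475951 to 46476299, 782 to 1130 bp into the gene, and at row 6871 (rows 6483 to 7123 form its run) it was the earliest of that list in the window. It had no partner in SB431542 or SMAD2. Upstream of the start, TEAD4 regions of the 2 treatments lay side by side without meeting. The SB431542 region at 46481896 to 46482093 (row 14969, the earliest of its list here) and the DMSO region at 46481201 to 46481449 (row 54970) were 446 bp apart. Farther upstream the TEAD4 lists overlapped at 2 places. At 9.27 kb from the start, 46486261 to 46486438 in SB431542 (row 34124) and 46486301 to 46486499 in DMSO (row 241742) shared 138 bp. At 12.9 kb, 46489887 to 46490075 in SB431542 (row 71565) and 46490051 to 46490249 in DMSO (row 157798) shared 25 bp. They stood at 13.0% and 27.3% of the SB431542 list and at 83.5% and 54.5% of the DMSO list. Places in lists of different length and make show no change in binding. Of the 14 SMAD2 regions around SMAD7, 1 was in the first 10% of rows, at 46404601 to 46404849 (row 38708), 72.4 kb downstream of the start. It shared 127 bp with TEAD4 in SB431542 (46404530 to 46404727, row 45816) and was not met by TEAD4 in DMSO. The SMAD2 region nearest the start, 46473901 to 46474049, lay 3.11 kb into the gene at row 378165, near the end of its list (89.9%). SMAD2 and TEAD4 of DMSO cells did not overlap anywhere in this window. That is 0 of 9 TEAD4 regions (0 to 29.9%) against 7.67% of the list. For SMAD2 it is 0 of 14 regions against 5.29%, and both counts are near the background. The closest pair was 201 bp apart, TEAD4 at 46496601 to 46496799 (row 21875) and SMAD2 at 46497001 to 46497199 (row 147920).

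PMEPA1, which keeps SMAD2 and SMAD3 from the receptor, had many SMAD2 regions and the widest TEAD4 regions. Its window on chromosome 20 (gene body 56223448 to 56286592, minus strand) held 13 TEAD4 regions in SB431542, 13 in DMSO and 40 SMAD2 regions. Of 17541 tiles of this width, 0.519% had at least 40 SMAD2 regions, and their median was 24. SMAD2 regions numbered 24.5 per 100 kb in the window, 15.5 along chromosome 20 and 14.0 over all chromosomes. The SMAD2 regions were spread out, 10 upstream, 12 on the gene body and 18 downstream. For both TEAD4 lists the window was below the tile median, which was 15 in SB431542 and 17 in DMSO. At most 13 regions were found in 41.5% of tiles for SB431542 and in 28.4% for DMSO.

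On the PMEPA1 gene body, TEAD4 of DMSO cells had 8 regions, among them the widest of all members. They spanned 849 bp at 56249001 to 56249849 (row 7715, run of rows 7347 to 8137) and 649 bp at 56247751 to 56248399 (row 28999), 601 bp apart and 37.2 and 38.5 kb into the gene. In the whole TEAD4 list of DMSO cells 0.0221% of regions were at least as wide as the first and 0.197% at least as wide as the second. TEAD4 members in SB431542 were at most 198 bp wide, and widths of lists made in different ways are not comparable. Neither wide DMSO region had a TEAD4 partner in SB431542. The first shared 99 bp at its edge with SMAD2 (56249751 to 56249899, row 182971), and another SMAD2 region lay 301 bp from it (56250151 to 56250299, row 226508). The earliest TEAD4 region in SB431542, at 56269697 to 56269882 (row 8467), lay 16.8 kb into the gene with no partner in DMSO. The nearest region to the gene start was SMAD2 at 56285751 to 56285849 (0.792 kb into the gene, row 398449, 94.7% of the list). On the other side of the start SMAD2 had a much earlier region, 56287551 to 56287799 (1.08 kb upstream, row 33308, 7.92%). TEAD4 in DMSO had a region 3.22 kb into the gene (56283251 to 56283499, row 67519). Within 5 kb of the start TEAD4 had none in SB431542.

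The lists overlapped at 6 places around PMEPA1. Of 13 TEAD4 regions in DMSO, 4 overlapped SMAD2 (30.8%, 12.7 to 57.6%), against 7.67% of the list. Of 13 in SB431542, 3 did (23.1%, 8.18 to 50.3%), against 5.46%. Of 40 SMAD2 regions, 4 overlapped TEAD4 in DMSO (10.0%, 3.96 to 23.1%), against 5.29%. The window held 24.5 SMAD2 regions per 100 kb, against 14.0 over all chromosomes, and a reason for the overlap was not tested. One of the 6 places, 51.1 kb into the gene, was called in all 3 lists. TEAD4 in SB431542 lay at 56235442 to 56235571 (row 43960), TEAD4 of DMSO cells spanned 56235351 to 56235599 (row 29000), SMAD2 56235351 to 56235499 (row 175797), and 58 bp were common to them. SMAD2 and TEAD4 of DMSO cells began at the same base there, and all starts of both lists lie on the 50 bp grid. The earliest SMAD2 region of the window, 56308151 to 56308349 (row 15670), lay 21.7 kb upstream and fell whole within the TEAD4 region of DMSO cells at 56308151 to 56308449 (row 125569). Downstream of the gene, SMAD2 met TEAD4 of DMSO cells at 56184551 to 56184699 (row 118478, TEAD4 at 56184601 to 56184749, row 238232). SMAD2 of DMSO cells met TEAD4 of SB431542 cells at 2 further downstream places. These were SMAD2 at 56190551 to 56190799 (row 26579) with TEAD4 at 56190659 to 56190825 (row 58450), sharing 141 bp, and SMAD2 at 56208951 to 56209099 (row 98784) with TEAD4 at 56209056 to 56209253 (row 13561), sharing 44 bp. On GRCh38, ZBP1 and the long non-coding RNA gene NKILA lie within 50 kb of PMEPA1, so a region of the window need not be nearest to PMEPA1.

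**Figure D2:**
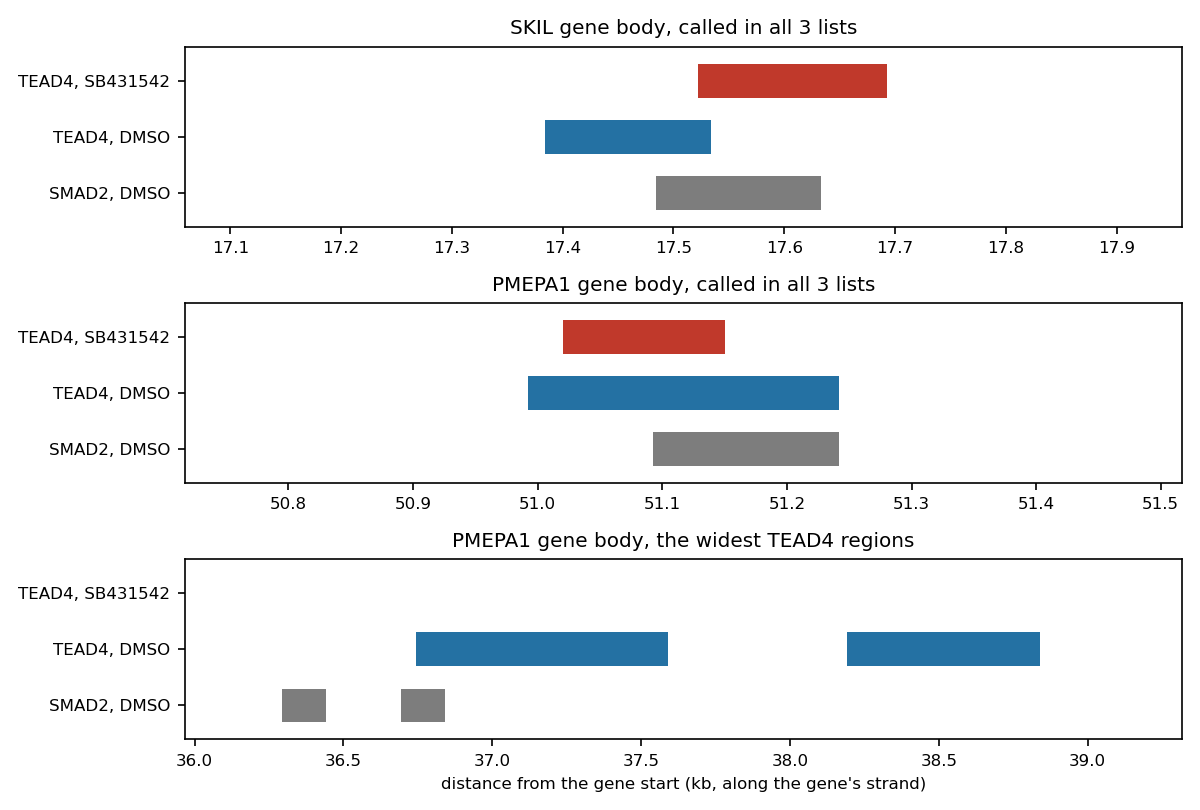
Regions at the 2 places called in all 3 lists (SKIL, top, and PMEPA1, middle) and at the widest TEAD4 regions of the PMEPA1 body (bottom), drawn to scale by distance from the gene start (x, kb) with a track for TEAD4 in SB431542, TEAD4 in DMSO and SMAD2 in DMSO. At SKIL the 3 regions share 11 bp and at PMEPA1 58 bp, and no SB431542 region lies at the wide TEAD4 regions.

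SKIL, the SMAD corepressor, had regions of all 3 lists on its gene body, but within its window the earliest region of each list lay outside it. The window on chromosome 3 (gene body 170075466 to 170114623, plus strand) held 16 TEAD4 regions in SB431542, 10 in DMSO and 21 SMAD2 regions, against tile medians of 12, 14 and 21. At least 16 in SB431542 were found in 27.1% of the 20540 tiles, at most 10 in DMSO in 23.1% and at least 21 SMAD2 regions in 50.5%. A surplus of at least 6 TEAD4 regions in SB431542 over DMSO was found in 13.6% of tiles. The earliest TEAD4 region of DMSO cells among all members, 170125201 to 170125449 (row 3956, run of rows 3782 to 4168), lay 49.9 kb from the start and past the end of the gene. It had no partner in SB431542 or SMAD2. On GRCh38, CLDN11 lies within 50 kb of SKIL, on the side of this region. The earliest SMAD2 region of the window, 170027201 to 170027499 (row 13002), lay 48.1 kb upstream with no TEAD4 partner. The window's earliest TEAD4 region in SB431542, 170115489 to 170115686 (row 31248), lay just past the end of the gene.

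Close to the SKIL start, TEAD4 was called in SB431542 and not in DMSO, which is no measured difference between the treatments. Within 5 kb, SB431542 cells had 4 TEAD4 regions, at 170070634 to 170070758 (row 44307), 170072736 to 170072900 (row 85945), 170078413 to 170078521 (row 244678) and 170079432 to 170079566 (row 96888). TEAD4 in DMSO had 0 there, its nearest region being 12.0 kb into the gene (row 87496). Only 56.0% of genome points had a TEAD4 midpoint of DMSO cells within 5 kb, and 55.2% one of SB431542 cells, so 0 is common. A background for a count of 4 was not computed, and the region of row 244678 stood at 93.3% of its list. SMAD2 had 2 regions within 5 kb of the start, at 170077651 to 170077799 (row 197052) and 170078101 to 170078249 (row 313129). The second of these was 163 bp from a TEAD4 region of SB431542 cells. The place called in all 3 lists lay 17.5 kb into the gene. The region of TEAD4 in SB431542 (170092989 to 170093158, row 181111), that of TEAD4 with DMSO (170092851 to 170092999, row 155338) and the SMAD2 region (170092951 to 170093099, row 277788) shared 11 bp, and each stood in the later 50% of its list. SMAD2 and TEAD4 of DMSO cells also met downstream of the gene, at 170132151 to 170132349 (row 125229) and 170132251 to 170132399 (row 188335), with 99 bp in common.

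Set side by side, the 4 genes were not high in the same lists. PMEPA1 was above the upper tile quartile for SMAD2 alone and SMAD7 for TEAD4 in SB431542 alone, while SKIL reached it for TEAD4 in SB431542 and BAMBI was below the median in every list. For TEAD4 in DMSO all 4 windows were below the tile median. The numbers are 12 counts, neighbouring regions are not independent, and copy number, mappability and the controls used for calling were not tested. A region of any list within 5 kb of the start was found for SMAD7, SKIL and PMEPA1. By list this was 2 of 4 genes for TEAD4 in SB431542 (55.2% of genome points), 2 of 4 for TEAD4 in DMSO (56.0%) and 3 of 4 for SMAD2 (73.0%), and these counts are near the background.

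**Figure D3:**
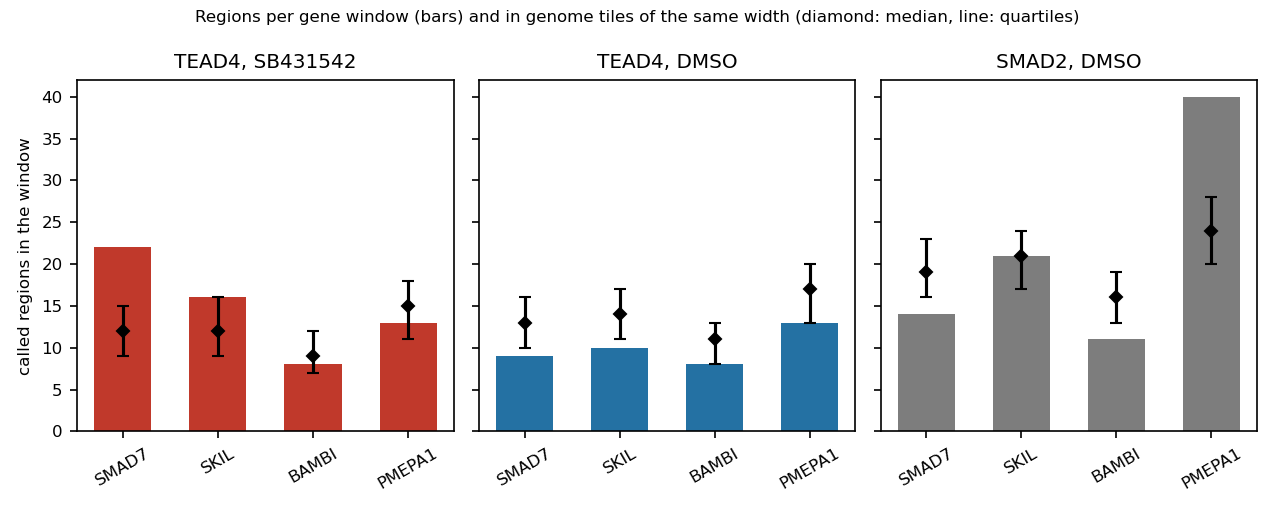
Number of called regions in the window of each gene (bars, from 0) for TEAD4 in SB431542, TEAD4 in DMSO and SMAD2 in DMSO, with the median (diamond) and quartiles (line) over genome tiles of the same width. The SMAD7 bar for TEAD4 in SB431542, 22, and the PMEPA1 bar for SMAD2, 40, stand above the upper quartiles of 15 and 28.

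Members stood in the first 10% of their lists about as often as any region does. In the first 10% of rows were 6 of 59 TEAD4 members in SB431542 (10.2%, 4.74 to 20.5%), 5 of 40 in DMSO (12.5%, 5.46 to 26.1%) and 8 of 86 SMAD2 members (9.30%, 4.79 to 17.3%), beside 10.0% of each list by construction (19 of 185 members, 10.3%). Median rows were at 40.0%, 38.4% and 47.5% of the lists, all before the middle at 50%. In the first 50% of rows stood 34 of 59, 22 of 40 and 45 of 86 members, and this lean was not tested. The earliest TEAD4 rows in DMSO were at SKIL (row 3956), SMAD7 (row 6871) and PMEPA1 (row 7715), and the earliest SMAD2 rows at SKIL (row 13002), BAMBI (row 14004) and PMEPA1 (row 15670). Median widths were 138 bp for TEAD4 members in SB431542, 199 bp in DMSO and 149 bp for SMAD2, beside 145, 199 and 149 bp over the lists. On gene bodies lay 17 of 59, 14 of 40 and 19 of 86 members. The body takes up 30.9 of 131 kb of the window at SMAD7 and 39.2 of 139 kb at SKIL. At BAMBI it is 5.45 of 105 kb and at PMEPA1 63.1 of 163 kb. A preference for gene bodies was not tested.

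Overlap between lists was rare over the whole lists and no rarer around these genes. Around the genes it concerned SMAD2 and TEAD4 of DMSO cells most, the pair that also overlapped most over the whole lists. Both of these lists lie on the 50 bp grid and the SB431542 list does not, so pairs of lists cannot be compared evenly. Of the 185 members, 26 (14.1%) overlapped a region of another list, against 10.5% of all regions, and they formed 12 places. Of the TEAD4 members in DMSO, 7 of 40 (17.5%, 8.75 to 31.9%) overlapped SMAD2, against 7.67% of that list, and 4 of the 7 lay at PMEPA1. The lower end of this interval is close to the value of the list, and the interval took in that value under several other settings. Without PMEPA1 the share was 11.1% (3 of 27, 3.85 to 28.1%) and without SKIL 16.7% (7.34 to 33.6%). Of the SMAD2 members 7 of 86 (8.14%, 4.00 to 15.9%) overlapped TEAD4 of DMSO cells, against 5.29%. With SB431542, 4 of 59 TEAD4 members (6.78%, 2.67 to 16.2%) overlapped TEAD4 of DMSO cells, against 6.39% of the list, and in the other direction 4 of 40 DMSO members did (10.0%, 3.96 to 23.1%), against 5.69%. The TEAD4 members in SB431542 overlapped SMAD2 of DMSO cells in 5 of 59 cases (8.47%, 3.67 to 18.4%), against 5.46%. Of the SMAD2 members, 5 of 86 (5.81%, 2.51 to 12.9%) overlapped TEAD4 in SB431542, against 3.39%. Both other lists were met by 2 of 59 TEAD4 members in SB431542 (3.39%, 0.935 to 11.5%), against 0.505% of the list. In DMSO it was 2 of 40 (5.0%, 1.38 to 16.5%), against 0.516%, and for SMAD2 2 of 86 (2.33%, 0.640 to 8.09%), against 0.302%. These are the same 2 places, in SKIL and PMEPA1, seen from each list. The intervals begin above the values of the lists, but counts of 2 leave these shares imprecise.

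Few TEAD4 members stood early in the DMSO list, too few to set their overlap with SB431542 apart from that of other early regions. Of the 5 in the first 10% of rows, 3 at SMAD7, 1 at SKIL and 1 at PMEPA1, 0 overlapped TEAD4 in SB431542, which allows a share of up to 43.4%. In the first 10% of the whole DMSO list 12.8% did, so 0 of 5 is near the background. The 10% limit falls inside a run. Read by the first row of the run, 7 members qualified and 1 of them, PMEPA1 row 29000, overlapped SB431542 (14.3%, 2.57 to 51.3%), against 12.5% of regions read in the same way. The 4 TEAD4 members of DMSO cells that were called again stood at 10.0%, 53.7%, 54.5% and 83.5% of the list.

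**Figure D4:**
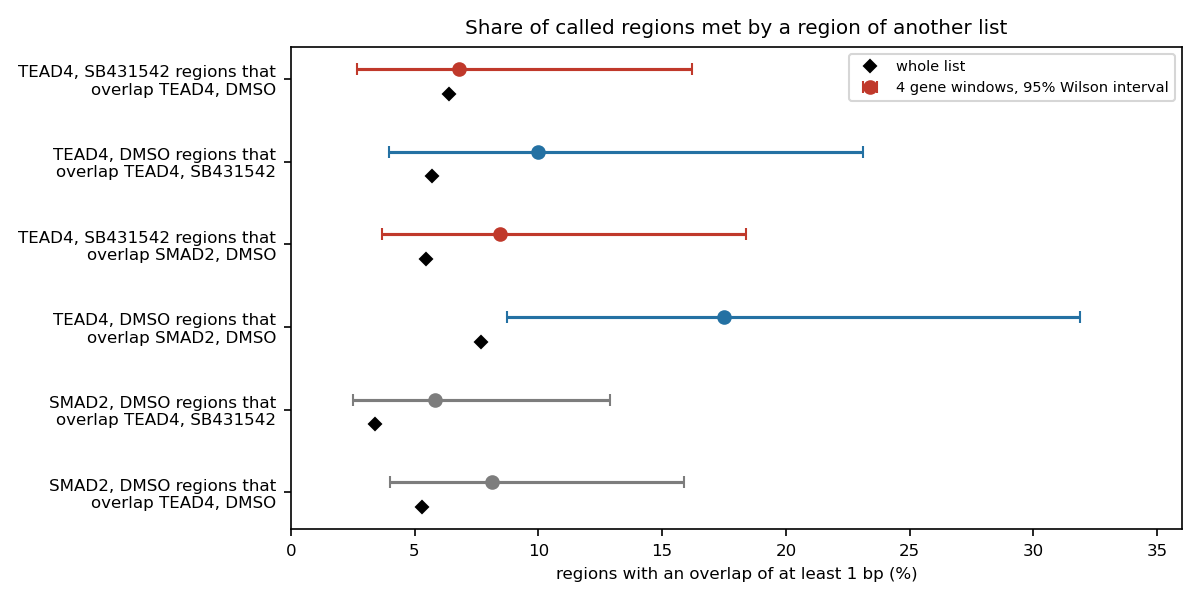
Share of regions (x, %) that overlap a region of another list by at least 1 bp, in the 4 gene windows (circles with 95% Wilson intervals) and in the whole list (black diamonds), for each ordered pair of lists. The diamond lies inside the interval in 5 of the 6 pairs and just below it, at 7.67% against 8.75%, for TEAD4 in DMSO overlapping SMAD2.

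The distances of TEAD4 members to SMAD2 were close to those over the lists. From a TEAD4 member to the nearest SMAD2 region the median distance was 2.04 kb in SB431542 and 2.18 kb in DMSO, beside 2.02 and 1.80 kb over the lists. A SMAD2 region within 500 bp was found for 9 of 59 members in SB431542 (15.3%, 8.24 to 26.5%), against 19.7% of the list, and for 10 of 40 in DMSO (25%, 14.2 to 40.2%), against 22.1%. By gene, the median distance from TEAD4 in DMSO to SMAD2 was 1.00 kb at PMEPA1, 2.78 kb at BAMBI, 3.28 kb at SKIL and 6.45 kb at SMAD7. In the same order the windows held 40, 11, 21 and 14 SMAD2 regions, and a link of these numbers to the distances was not tested. From TEAD4 members in SB431542 to TEAD4 in DMSO the median was 6.32 kb, beside 3.27 kb over the list, and 6 of 59 (10.2%) had such a region within 500 bp, against 16.4%. In the other direction the median was 4.17 kb, beside 3.42 kb, with 6 of 40 (15.0%) within 500 bp, against 14.7%. From SMAD2 members to TEAD4 of DMSO cells it was 5.03 kb, beside 3.10 kb, with 12 of 86 (14.0%) within 500 bp, against 15.4%.

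The member nearest to the 50 kb limit was a TEAD4 region of DMSO cells 49.8 kb from the BAMBI body (28916501 to 28916649, row 115890). The nearest region left out was another, 50.7 kb from SMAD7 (46527751 to 46527849, row 261451).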

How the data were processed

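ChIP-seq region lists of 3 groups of WA09 cells were used, 1 library each. Each deposited list has 3 columns, the chromosome, start and end of a region in bp, with no score, p-value or count, and depth is unknown. Coordinates are on hg19, as named in the submitters' processing notes, and aligner, caller, threshold and control were not given in the sources used here. A list's name holds the precipitated protein and the treatment, and no more than 1 sample title matches each.

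Starts were counted from 0 as in BED files and are printed counted from 1. If ends are inclusive, regions are 1 bp wider. Members touch a gene body extended by 50 kb, and regions overlap if they share at least 1 bp. The members, and hence the windows, were chosen with earlier results of these data known. Regions named with positions are, for each gene and list, the one with the smallest row, those that overlap another list and those with a midpoint within 5 kb of the gene start. Close pairs without overlap and the wide PMEPA1 region of row 28999 were named after their values were seen, as were the second BAMBI region of SMAD2 and the regions nearest to the starts and the window limit. The plan to rank by the authors' score was replaced by row order.

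Tiles of each window's width were laid end to end from the first to the last region of chromosomes 1 to 22, X and Y, leaving out tiles with no region of any list. Points spaced 1 kb apart and stretches without a region took in the whole of this span, assembly gaps included. Gene strands, promoter sequences and neighbouring genes came from RefSeq tables on GRCh38.p14, and all 4 genes matched by symbol. Builds were not mixed, so exons and introns, sequences of the regions and further pathway genes were not analysed here, nor was the cell type checked, since region lists hold no marker expression. Shares carry 95% Wilson intervals. Overlap counting was tested on simulated data. The alternatives were other flanks, stricter overlap, the first 50% of rows, removal of the widest 1% of regions, leaving out each gene and other row readings. Computations ran in Python 3.11.15 with NumPy 2.4.6 and SciPy 1.17.1, and matplotlib 3.10.9 drew the figures.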

Additional observations from a re-analysis of the deposited data

How the results depend on the processing

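The number of members follows the flank by construction: with 10 kb it was 29 for TEAD4 in SB431542, 19 for TEAD4 in DMSO and 28 for SMAD2, and with 100 kb it was 109, 74 and 157. With the first 50% of rows it was 34, 22 and 45. With an overlap of 50% of both regions, 7.5% of TEAD4 members in DMSO overlapped SMAD2, against 2.5% of the list, and 3.49% of SMAD2 members overlapped TEAD4 in DMSO, against 1.72%. The interval of TEAD4 members in DMSO that overlap SMAD2 began below the value of the list, computed under the same setting, with a 10 kb flank (5.52 against 7.67%), midpoints within 100 bp (5.46 against 5.63%), the first 50% of rows (4.75 against 5.02%), without SKIL (7.34%) and without PMEPA1 (3.85%). Without the widest 1% of regions it began at that value (7.44%), and it stayed above it with a 100 kb flank, an overlap of 50%, without SMAD7 and without BAMBI. The other overlap shares given for SMAD2 with TEAD4 in DMSO, and for TEAD4 in SB431542 with TEAD4 in DMSO, stayed within the intervals given in the text under the other flanks, midpoints within 100 bp, removal of the widest 1% of regions, the first 50% of rows and without each gene in turn. Leaving out genes and reading a region's row as the first or last of its run were chosen after seeing the data. By the first row of a run, 7 of 40 TEAD4 members in DMSO were in the first 10% of rows, and by the last row 5. No paired analysis was possible because groups consist of a single library, which also left none to omit. Depth is unknown, so a region that a list lacks was not detected at an unstated depth and threshold.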
